A study of Mus musculus with 20 samples.

Results

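A set of 10 genes of the cytotoxic granule and of natural killer (NK) cell receptor signaling was followed in the bone marrow of mice carrying T lineage acute lymphoblastic leukemias (T-ALLs): *Gzma*, *Gzmb*, *Prf1*, *Nkg7*, *Klrd1*, *Klrk1*, *Ncr1*, *Fcer1g*, *Sh2d1b1* and *Sh2d1b2*. They were chosen by symbol, and selected on levels and changes already seen in these libraries, so their levels are given as a description without a test. Of the 10 members, 9 had a row among the 39017 genes of the table, and the level of *Sh2d1b1* was not analysed here. *Gzma* was abundant in every leukemia, *Gzmb* was near 0 in 9 of 10 leukemias, and *Prf1* and *Nkg7* divided the leukemias. The receptor members *Klrd1*, *Klrk1* and *Ncr1* were under 1 FPKM (a level scaled by depth and gene length) in 9 of 10 leukemias but for 1 library. *Fcer1g* followed myeloid markers, and *Sh2d1b2* was present in a single leukemia.

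The leukemias were initiated by insertional mutagenesis (IM), in which the retrovirus MOL4070LTR was injected into C57Bl/6 x 129Sv/Jae F1 pups. All had been transplanted, and RNA was taken from the marrow of the recipients, so a library holds leukemia cells together with the marrow cells of the host. Each leukemia had 2 libraries, whose column names carry the letters VEH or DEX. Neither the labels nor the paper explains these letters, and they are used here only as names of columns.

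Killer lymphocytes store granzymes and perforin in secretory granules. At the contact with a target cell, perforin opens the target membrane and granzymes enter and cleave proteins inside. NK cells decide whether to release granules through pairs of activating and inhibitory receptors, many of which have no signaling tail of their own and rely on small adaptor proteins. Immature T cells and some T-ALLs also transcribe a part of this program, and several of the adaptors are shared with myeloid cells. In marrow, fewer cells of a type and less RNA per cell cannot be told apart.

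The 20 libraries held 8226528 to 201222288 expected counts, with a median of 23032916. Levels are given in FPKM, that is, counts divided by exon length in kb and by the library total in M, and 3 counts amount to 0.0149 to 0.365 FPKM for an exon length of 1 kb. In 5 libraries (20M DEX, 5C VEH, 73M DEX, JW14 DEX and JW81 DEX), ribosomal RNA genes held 21.6 to 64.0 counts per M counts, against at most 0.0656 in the other 15 libraries. The T-cell markers *Cd3d*, *Cd3e*, *Cd3g*, *Lck*, *Thy1*, *Cd5* and *Trbc2* summed to 718 to 1842 FPKM in 9 leukemias. Leukemia 4638 stood apart: its T-cell sum was 558 FPKM, below those 9, while its sums for 6 of 8 marker lists (host NK, neutrophil, macrophage, mast cell or basophil, erythroid and B cell) were above all of them. The text of the paper names only 73M and JW81. Which of its leukemias 4638 is remains in doubt, as it does for the others that the text does not name. Of these, 4638 was kept out of the comparison of DEX with VEH columns and its values are given separately.

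**Figure D1:**
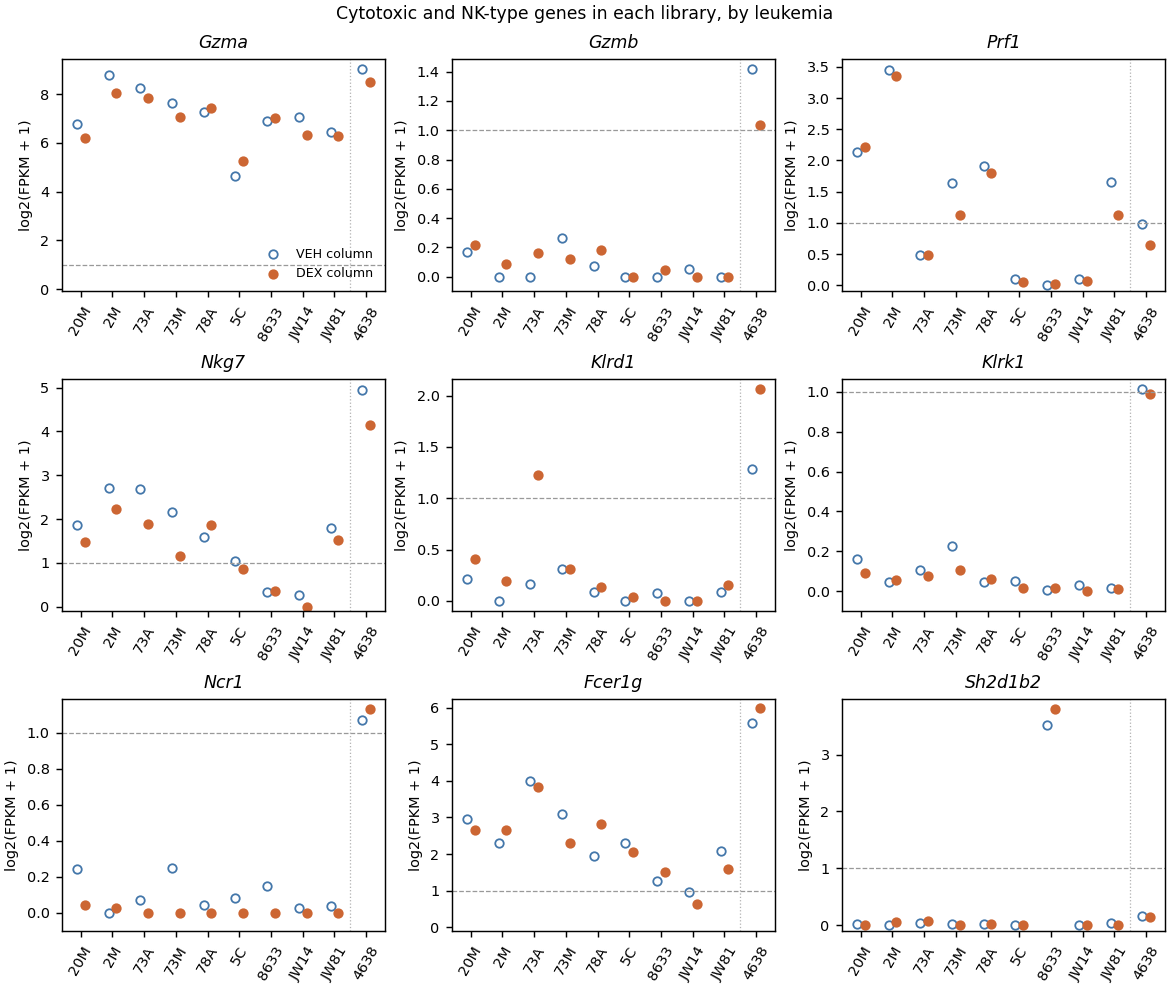
Level of each member, log2(FPKM + 1), in the VEH column (open circles) and the DEX column (filled circles) of each leukemia; the dashed line is 1 FPKM, the vertical dotted line sets off 4638, and each panel has its own scale. *Gzma* lay between 23.9 and 436 FPKM in the 18 libraries of 9 leukemias, while *Sh2d1b2* rose above the line in 8633 alone.

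*Gzma* encodes granzyme A, a granule protease that cuts after basic residues. The gene (ENSMUSG00000023132) lies at chr13:113093825-113100981 on the minus strand of GRCm38. Over the 18 libraries of 9 leukemias its lowest, median and highest levels were 23.9, 130 and 436 FPKM, and the mean over leukemias was 152 ± 98.9 FPKM (SD, n = 9). In the VEH and DEX libraries it stood at 436 and 264 FPKM in 2M, 299 and 226.3 in 73A, and 200 and 134 in 73M. *Gzma* was thus among the strongly expressed genes of the marrow: it ranked between place 48 and place 1586 of 21303 protein-coding genes, above at least 92.6% of them in each of the 20 libraries. It reached 152 and 171 FPKM in 78A, 119 and 130 in 8633, and 131 and 79.6 in JW14. The lower values were 108 and 72.0 FPKM in 20M, 86.8 and 76.5 in JW81, and 23.9 and 36.8 in 5C. The pair of 5C lay below all other libraries, and 5 of the 8 neighbouring leukemias in the order of levels overlapped in the range of their libraries (JW81 with 20M, 20M with JW14, JW14 with 8633, 78A with 73M and 73A with 2M). The leukemia means spanned 3.48 on the log2(FPKM + 1) scale, while the 2 libraries of one leukemia differed by at most 0.72, in 2M. In 4638 *Gzma* was at 522 and 362 FPKM.

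*Gzmb*, granzyme B, cuts after aspartate and activates caspases in the target cell (ENSMUSG00000015437, chr14:56258838-56262260, minus strand). No library of the 9 leukemias was above 0.204 FPKM, and 8 of 18 held no count. A count of 0 allows up to 3 counts, or 0.254 FPKM in JW14 DEX, the shallowest library. The largest number of counts, 59, came from 73M VEH, the library with the most counts in all, and corresponded to 0.204 FPKM. In 4638 the gene was at 1.67 and 1.05 FPKM, on 48 and 23 counts. *Gzma* therefore made up at least 96.6% of the FPKM summed over 9 granzyme genes in each of the 20 libraries. *Gzmc*, *Gzmd*, *Gzme*, *Gzmf* and *Gzmg* had 0 counts throughout, *Gzmk* stayed at or below 0.0892 FPKM in the 9 leukemias, and *Gzmm* ranged from 0.221 to 1.01 FPKM over all libraries.

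*Prf1* encodes perforin, the pore-forming protein without which granzymes do not reach their targets (ENSMUSG00000037202, chr10:61297833-61304680, plus strand). Both libraries were at 1 FPKM or more in 5 leukemias, with VEH and DEX values of 9.95 and 9.19 FPKM in 2M, 3.38 and 3.63 in 20M, and 2.75 and 2.48 in 78A. JW81 stood at 2.16 and 1.18 FPKM, and 73M at 2.13 and 1.18. The other leukemias were lower: 73A at 0.400 and 0.400 FPKM, JW14 at 0.0717 and 0.0470, 5C at 0.0685 and 0.0407, and 8633 at 0 and 0.0170. By value, 2 of the 8 neighbours in the order overlapped, 5C with JW14 and 73M with JW81. The order of 8633 (0 and 1 counts) and 5C (2 and 3 counts) rests on values at or under the floor of 3 counts. In 4638, with the highest *Gzma* of all, *Prf1* was at 0.984 and 0.558 FPKM.

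*Nkg7* encodes a membrane protein of the granule (ENSMUSG00000004612, chr7:43437073-43438249, plus strand). Both libraries reached 1 FPKM in 6 of 9 leukemias: 2M at 5.59 and 3.69 FPKM, 73A at 5.48 and 2.68, 73M at 3.48 and 1.22, 20M at 2.62 and 1.78, JW81 at 2.47 and 1.90, and 78A at 2.01 and 2.64. Those in which *Prf1* was near 0 were again low, with 1.06 and 0.805 FPKM in 5C, 0.258 and 0.288 in 8633, and 0.203 and 0 in JW14. *Nkg7* in 73A, a leukemia low in *Prf1*, overlapped that of 2M. In 4638 it was at 30.0 and 16.7 FPKM. The summed macrophage markers followed the same order in part, and across the 9 leukemias the r between their log2 sum and *Nkg7* was 0.88 (rho 0.83, and r 0.81 without the 2 leukemias farthest in the marker sum). For *Prf1* the same r was 0.42, and 0.71 without those 2 leukemias, and for *Gzma* it was 0.39, and 0.26 without them. Markers of plasmacytoid dendritic cells (*Siglech*, *Klk1*, *Cox6a2* and *Ly6d*) divided the leukemias as *Prf1* did except for 73A, with sums of 31.2 to 632 FPKM in 20M, 2M, 73A, 73M, 78A and JW81 and of 0.205 to 0.862 FPKM in 5C, 8633 and JW14. *Ly6d* carried these sums, the other markers of the list summing to at most 5.16 FPKM in the 18 libraries and *Siglech*, the defining one, reaching 0.470 FPKM. These are descriptions over 9 leukemias whose libraries share both measures, and the part of other marrow cells in these levels was not tested.

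The sequence before the start of the 4 granule members is shown because they were so unequally expressed. The 250 bases before the RefSeq start (GRCm38.p6, 5′ to 3′ on the gene's strand) were searched on both strands for 3 motifs: TGTGGT, the core bound by RUNX factors, AGGTGT, the core bound by T-box factors, and ACANNNTGT, the palindrome of the glucocorticoid receptor. Matches are in capitals. For *Gzma* the window is chr13:113100982-113101231, for *Prf1* chr10:61297586-61297835, for *Nkg7* chr7:43436888-43437137 and for *Gzmb* chr14:56262335-56262584.
Gzma: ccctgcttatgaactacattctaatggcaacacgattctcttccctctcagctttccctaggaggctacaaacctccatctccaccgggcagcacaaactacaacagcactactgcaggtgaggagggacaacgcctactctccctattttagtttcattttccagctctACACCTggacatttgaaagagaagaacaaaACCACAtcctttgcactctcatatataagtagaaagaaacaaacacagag
Prf1: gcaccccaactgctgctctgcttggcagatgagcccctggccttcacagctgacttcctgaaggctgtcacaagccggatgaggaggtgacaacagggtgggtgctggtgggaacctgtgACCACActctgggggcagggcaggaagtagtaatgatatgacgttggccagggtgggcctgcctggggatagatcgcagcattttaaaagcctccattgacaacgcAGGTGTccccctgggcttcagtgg
Nkg7: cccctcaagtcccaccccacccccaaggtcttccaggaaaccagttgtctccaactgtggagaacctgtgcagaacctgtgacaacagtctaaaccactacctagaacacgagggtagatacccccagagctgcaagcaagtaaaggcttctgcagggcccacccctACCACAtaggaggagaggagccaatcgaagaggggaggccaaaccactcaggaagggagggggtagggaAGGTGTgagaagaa
Gzmb: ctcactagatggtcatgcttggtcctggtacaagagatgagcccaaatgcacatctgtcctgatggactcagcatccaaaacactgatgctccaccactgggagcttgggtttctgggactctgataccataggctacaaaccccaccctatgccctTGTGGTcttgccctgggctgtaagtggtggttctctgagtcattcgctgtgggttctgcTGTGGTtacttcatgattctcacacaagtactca
The RUNX core was found in each of these 4 windows, at 2 places for *Gzmb* and at 1 for the others, and in 8 of the 9 members with a promoter sequence, which include *Sh2d1b1* and not *Klrd1*. It occurs in 14.0% of the 32851 RefSeq windows of this length. The *Sh2d1b1* and *Sh2d1b2* matches lie in the same run of bases, so they are not independent. The T-box core stood in *Gzma*, *Prf1* and *Nkg7* (3 of 9 members, against 11.8% of all windows) and not in the *Gzmb* window. The glucocorticoid receptor palindrome was found only in the *Ncr1* window, where it overlaps a RUNX core (5.84% of all windows hold it). A match is a run of letters and not a shown binding site.

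The nearest protein-coding genes of the granule members were mostly silent, their levels being given as leukemia means. *Gzma* lies between *Cdc20b* (at most 0.405 FPKM in any leukemia) and *Gzmk*, 70627 bases away (at most 0.428 FPKM, in 4638). *Gzmc* and *Atp12a* on either side of *Gzmb* were at 0 in every leukemia. Beside *Prf1*, *Adamts14* reached 3.78 FPKM in 2M and 1.33 in 78A and was at most 0.450 in the other leukemias, and *Pald1* was at most 0.109. *Lim2* and *Cldnd2*, which flank *Nkg7*, did not exceed a leukemia mean of 0.0378 FPKM. By the shape of the level over 9 leukemias, the genes most like *Prf1* among 8753 compared were *Insig2* (r = 0.98), *Relch* (r = 0.95) and *Tmcc3* (r = 0.95). *Tmcc3* was at 6.10 FPKM in 2M and at most 0.0514 in 5C, 8633 and JW14. For *Gzma* they were *Bphl* (r = 0.95), *Slc25a12* (r = 0.94) and *Dnaaf5* (r = 0.94), whose levels spanned a narrow range, from 3.31 to 5.39 FPKM for *Bphl*.

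The 3 receptor members were near 0 in the 9 leukemias. *Klrd1* encodes CD94, the partner of NKG2 chains in receptors for nonclassical MHC class I (ENSMUSG00000030165, chr6:129591782-129598775, plus strand). *Klrk1* encodes NKG2D, an activating receptor for stress-induced ligands (ENSMUSG00000030149, chr6:129610323-129623864, minus strand). *Ncr1* encodes NKp46, a defining receptor of NK cells (ENSMUSG00000062524, chr7:4337724-4345164, plus strand). *Klrk1* did not exceed 0.169 FPKM and *Ncr1* did not exceed 0.190 FPKM in any of the 18 libraries, both highs being in 73M VEH. Every leukemia but 4638 was therefore under 1 FPKM for both genes. *Klrd1* passed 1 FPKM in a single library, 73A DEX, at 1.34 FPKM on 40 counts, while 73A VEH held 2 counts (0.124 FPKM). The next *Klrd1* value was 0.326 FPKM, in 20M DEX. In 4638, *Klrd1* was at 1.44 and 3.17 FPKM, *Klrk1* at 1.02 and 0.986, and *Ncr1* at 1.10 and 1.19.

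Host NK cells were looked for with 10 markers (*Klrb1c*, *Klra4*, *Klra8*, *Klra9*, *Klre1*, *Klri2*, *Eomes*, *Itga2*, *S1pr5* and *Ncr1* itself). Their summed level was 0.282 to 4.49 FPKM over the 18 libraries, and 9 of the 10 genes were under 1 FPKM in each of them. None was under 3 counts in all 18 libraries. *Klrb1c*, which encodes NK1.1, ranged from a mean of 0.123 FPKM in JW81 to 3.49 in 5C, and the highest value of any other marker was 0.515 FPKM. In 4638 the sum was 4.86 and 7.61 FPKM. Of 26 NK receptor genes other than the members, 6 of which are also among these markers, 17 were under 1 FPKM in all 18 libraries, and the 8 *Klra* genes, which encode Ly49 receptors for MHC class I, did not exceed 0.592 FPKM.

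In leukemias where the receptor members were near 0, a few other genes of the NK receptor list were strong. *Slamf6*, a SLAM family receptor also found on thymocytes, had a leukemia mean of 10.6 to 29.4 FPKM in the 9 leukemias. *Cd160*, which encodes a receptor for MHC class I and HVEM, ranged from 1.93 FPKM in 5C to 27.8 in 73A. *Klrb1b*, an inhibitory receptor of the NKR-P1 family, was at 32.7 FPKM in 5C and at most 0.347 in every other leukemia. *Fcgr3*, a low-affinity IgG receptor of NK and myeloid cells, ranged from 1.64 FPKM in 5C to 8.23 in 73A and was at 23.7 in 4638.

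The chromosomal neighbours of the receptor members were silent as well. *Klrd1* and *Klrk1* lie side by side in the NK gene complex of chromosome 6, 11548 bases apart, with *Klre1* before and *Klrc3* after them, and neither neighbour exceeded a mean of 0.0624 FPKM in a leukemia other than 4638. *Lilra5* and *Gp6* beside *Ncr1* had means of at most 0.157 and 0.0463 FPKM in the 9 leukemias.

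*Fcer1g* encodes the FcR gamma chain, which passes signals from NKp46, from Fc receptors and from several myeloid receptors (ENSMUSG00000058715, chr1:171229572-171234365, minus strand). It was detected in every library. The lowest, median and highest levels of the 18 libraries were 0.556, 3.95 and 15.1 FPKM. The order ran from JW14, at 0.939 and 0.556 FPKM in its VEH and DEX libraries, through 8633 at 1.39 and 1.86, to 73A at 15.1 and 13.2. Between them lay JW81 at 3.26 and 2.04 FPKM, 5C at 3.95 and 3.17, 78A at 2.82 and 6.03, 2M at 3.95 and 5.34, 73M at 7.59 and 3.97, and 20M at 6.70 and 5.36. From JW81 to 20M each leukemia overlapped the next in the order, so only JW14, 8633 and 73A stood clear. In 4638 it was at 46.6 and 62.2 FPKM.

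*Tyrobp*, which encodes the related adaptor DAP12 and is not a member, gave nearly the same order, from 2.40 FPKM in JW14 to 40.0 in 73A, and was at 166 in 4638. Over the 9 leukemias the r of the 2 levels on the log2(FPKM + 1) scale was 0.99 (rho 0.98), and 0.98 without the 2 leukemias farthest in *Tyrobp*. The summed macrophage markers ranged from 15.2 FPKM in JW14 to 332 in 73A, with r = 0.99 (rho 0.98, and 0.96 without the 2 farthest). The summed neutrophil markers ranged from 32.0 FPKM in JW14 to 3621 in 73A, with r = 0.85 (rho 0.90, and 0.84 without the 2 farthest). With host NK markers the r was -0.025. The genes most like *Fcer1g* in level were *Gda*, *Pirb* and *Retnlg*, with r = 0.996, 0.995 and 0.994, and *Retnlg*, itself one of the neutrophil markers, was at 0.843 FPKM in JW14, 74.8 in 73A and 469 in 4638. All 8 neutrophil markers and 7 of the 8 macrophage markers passed 1 FPKM in at least 1 of the 18 libraries. The part of these host cells in the level of *Fcer1g* was not tested. *Apoa2*, the nearest protein-coding gene on one side of *Fcer1g*, had a leukemia mean of at most 1.08 FPKM.

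**Figure D2:**
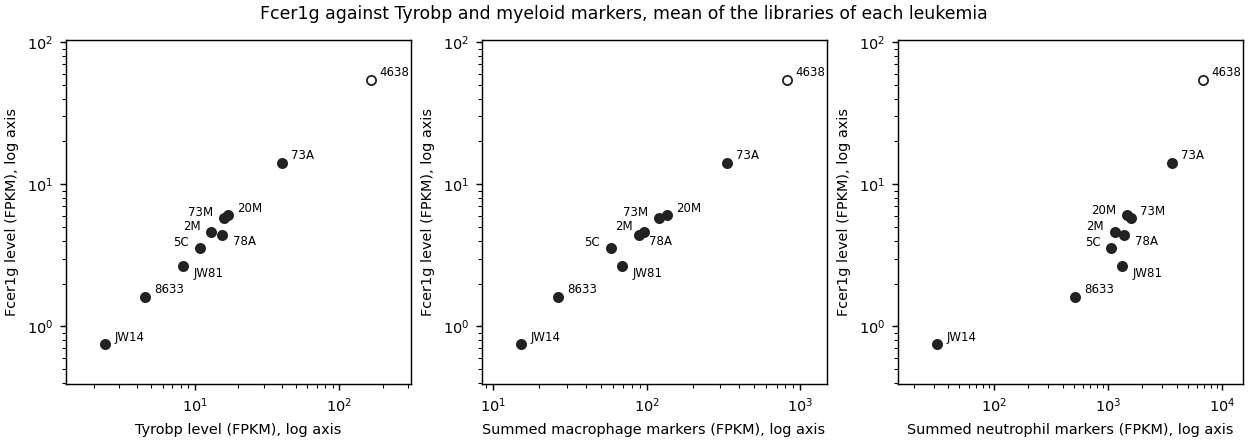
*Fcer1g* level in each leukemia (FPKM, mean of its libraries) against the *Tyrobp* level and the summed macrophage and neutrophil markers, all on log axes; 4638 is the open circle. JW14 lies lowest and 73A highest of the 9 leukemias in all panels, with 4638 beyond them.

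*Sh2d1b2* encodes an EAT-2 family adaptor, a single SH2 domain that binds SLAM receptors in NK cells (ENSMUSG00000073494, chr1:170232749-170253608, plus strand). It was held by a single leukemia. The VEH and DEX libraries of 8633 contained 795 and 748 expected counts, or 10.5 and 12.9 FPKM. Of the other 16 libraries of the 9 leukemias, 8 held no count, and the largest number was 8.03 counts, in 73M VEH. JW14, which shared low *Nkg7* and *Fcer1g* with 8633, held 0 counts in both libraries, and 4638 held 6.05 and 4.00 counts. The gene entered the comparison of DEX with VEH columns only through 8633.

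The coding sequence of *Sh2d1b2* is close to that of *Sh2d1b1*, which lies 23712 bases further along chromosome 1. *Sh2d1b1* had no row of its own, and the pair is shown because its fragments could have been counted on *Sh2d1b2*. In GENCODE M21 both coding sequences have 396 bases, 359 of which are the same (90.7%), and the first difference is at coding base 155. The stretch from coding base 151 to 330 is printed for *Sh2d1b2* (2 exons within chr1:170248149-170250160) and for *Sh2d1b1* (2 exons within chr1:170279800-170283266), with the 30 bases that differ in capitals.
Sh2d1b2: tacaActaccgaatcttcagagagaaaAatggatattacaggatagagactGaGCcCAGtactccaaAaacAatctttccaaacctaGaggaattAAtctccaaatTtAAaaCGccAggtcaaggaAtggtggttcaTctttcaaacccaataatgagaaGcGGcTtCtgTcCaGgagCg
Sh2d1b1: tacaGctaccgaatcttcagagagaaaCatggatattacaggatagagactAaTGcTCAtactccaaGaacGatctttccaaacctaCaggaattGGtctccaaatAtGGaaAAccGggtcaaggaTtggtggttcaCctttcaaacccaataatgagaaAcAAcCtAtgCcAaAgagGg
Of the 100-base windows of *Sh2d1b2* transcripts, 7.0% also occur in *Sh2d1b1*, and no other member shared such a window with another gene. A fragment from the shared stretch cannot be told apart by its sequence. How many of the 8633 counts come from that stretch, or from *Sh2d1b1* at all, was not tested.

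*Uhmk1*, the nearest protein-coding gene of the table on one side of *Sh2d1b2* (17352 bases away), was also highest in 8633, at 37.9 and 35.2 FPKM against 12.5 to 28.0 in the other 18 libraries. *Nos1ap*, on the other side, was at 0.112 and 0.0484 FPKM in 8633 and at most 0.800 elsewhere. The genes most like *Sh2d1b2* over 9 leukemias were *Serpinb5* (r = 0.99), *1700006J14Rik* (r = 0.98) and *Ccdc38* (r = 0.97), with 6.90, 23.0 and 5.41 FPKM in 8633. These r rest on 8633 alone, since the other leukemias were near 0 for the first of them (at most 0.220 FPKM).

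**Figure D3:**
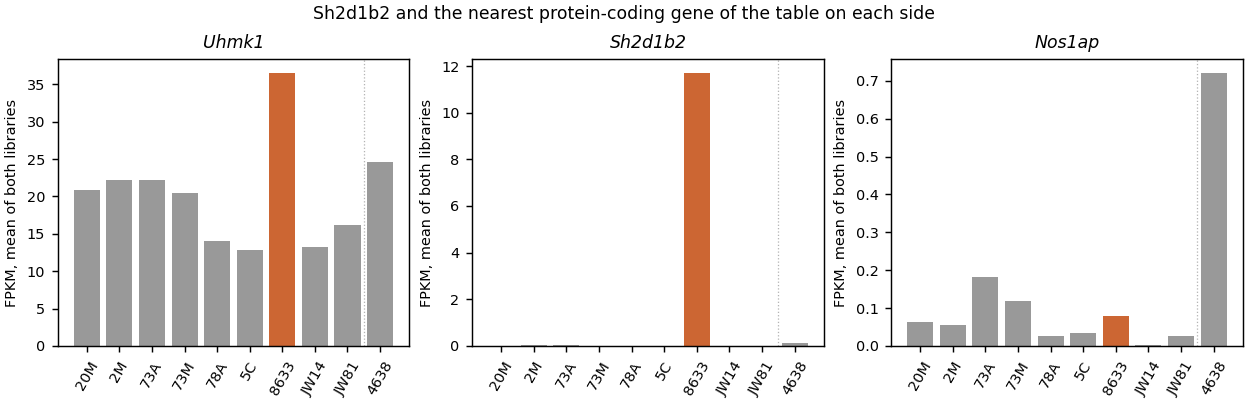
Bars give the FPKM of *Sh2d1b2* and of the nearest protein-coding gene of the table on each side, mean of both libraries, in each leukemia, each panel with its own scale starting at 0. In 8633 (orange) *Sh2d1b2* stands at 11.7 FPKM and *Uhmk1* at 36.6, the highest of the 10 leukemias for both.

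By median library level in the 9 leukemias, the most abundant of 9 other adaptors and signaling proteins were ones that T cells use. Within 73A, *Tyrobp* at 40.0 FPKM was above *Zap70* and *Cd247*, and in 4638 it was the highest of the list at 166. *Vav1*, a guanine nucleotide exchange factor downstream of immune receptors, had leukemia means of 35.8 to 54.7 FPKM, *Zap70*, the kinase of the T-cell receptor, 27.5 to 57.9, and *Cd247*, which encodes the zeta chain, 20.8 to 48.8. The list was not even throughout: *Syk*, the kinase that FcR gamma recruits, ranged from 0.278 FPKM in JW14 to 9.14 in JW81, and *Plcg2*, a phospholipase of B, NK and myeloid cells, from 0.292 in JW14 to 10.8 in 73A, both named after their values were seen. Among the regulators, *Ikzf2*, which encodes Helios, ranged from 4.97 FPKM in 8633 to 26.4 in JW81, and *Id2*, an inhibitor of E proteins needed for NK cells, from 0.983 in JW14 to 23.4 in 73A.

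The 2 libraries of each leukemia were then compared between columns with edgeR's quasi-likelihood test across all genes, with the leukemia as a block. Of 11339 genes averaging 1 FPKM or more, 705 were higher and 770 lower in the DEX columns at an adjusted p of 0.05 (13.0%). None of the 5 members tested was called by edgeR (0 of 5), and 1 had an unadjusted p under 0.05 (31.5% of all genes did). DESeq2 called 0 of 5 (19.1% of all genes). Of these 5, *Sh2d1b2* passed the filter only through 8633 (mean 11.7 FPKM), so its fit says little about the other leukemias. Since the members were chosen with their changes in these libraries known, these counts and the p-values of members below describe the libraries and are no independent evidence. The labels do not say whether the libraries came from separate mice, so p-values measure the spread between these libraries.

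*Gzma* was lower in the DEX library of 6 leukemias and higher in 3 (78A, 5C and 8633), with a log2 fold change of -0.21 (SE 0.14, adjusted p = 0.301 by edgeR). In all 5 leukemias with a library rich in ribosomal RNA counts, that library was the one lower in *Gzma*, including 5C, where it was the VEH library. In a fit with a term for these libraries the log2 fold change was -0.051. *Prf1* was lower in the DEX library of 7 of 9 leukemias, with a log2 fold change of -0.26 (SE 0.16, adjusted p = 0.283 by edgeR). The 7 include 73A, at 0.400 FPKM in both libraries, and 5C, on 2 and 3 counts. The log2 fold change of *Prf1* was -0.11 with the same term, -0.072 in the 4 leukemias without a library rich in ribosomal RNA, and -0.16 without 73M or without JW81. *Nkg7*, also lower in 7 of 9, had the largest change among the 3 granule members over the filter, -0.51 (SE 0.22, adjusted p = 0.143 by edgeR), and it was higher in 78A and 8633. In the 4 leukemias without a library rich in ribosomal RNA it was -0.33. The sums of the neutrophil, the macrophage and the host NK markers were likewise each lower in 7 of 9 DEX libraries. The plasmacytoid dendritic cell sum, carried by *Ly6d*, was higher in 1 of 9. The mast cell or basophil and the erythroid sums were each higher in 5 of 9, and the B-cell and T-cell sums in 4 of 9. The part of these cells in the differences was not tested.

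*Fcer1g* had no common direction, being lower in 6 DEX libraries and higher in 3, with a log2 fold change of -0.041 (SE 0.20, adjusted p = 0.908 by edgeR). It moved the same way as *Tyrobp* in 9 of 9 leukemias and the same way as the neutrophil sum in 8 of 9 and the macrophage sum in 6 of 9. In the 4 leukemias without a library rich in ribosomal RNA its log2 fold change was 0.46, and in the 5 with one it was -0.52. *Sh2d1b2* in 8633 differed by 0.27 on the log2(FPKM + 1) scale, with a log2 fold change over all leukemias of 0.19 (SE 0.45, adjusted p = 0.800 by edgeR). That value ranged from 0.052 without 2M to 0.31 without JW81 and was 0.47 with the term. No library outside 8633 held more than 8.03 counts of *Sh2d1b2*, so the fit says little about the other leukemias.

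The 4 members under the filter were read from a fit of 21687 genes with at least 10 counts in all. *Gzmb* (0.70, SE 0.69, adjusted p = 0.623 by edgeR), *Klrd1* (1.19, SE 0.58, adjusted p = 0.257 by edgeR) and *Klrk1* (-0.51, SE 0.35, adjusted p = 0.448 by edgeR) were not called. With a leukemia left out *Gzmb* ranged from 0.45 (without 73A) to 1.21 (without 73M) and *Klrd1* from 0.75 (without 73A) to 1.48 (without 73M). With the term *Gzmb* and *Klrd1* were at 2.18 and 1.92. *Klrk1* ranged from -0.68 (without 78A) to -0.39 (without 73M) and was -0.31 with the term. In the leukemias with a library rich in ribosomal RNA *Klrk1* was at -1.19, and in those without at 0.20. *Ncr1* was called lower in the DEX columns, as were 3.66% of all genes tested there, with an adjusted p of 0.0363 by edgeR. The call rests on few counts: the VEH libraries held 59 counts in 73M, 11 in 20M, 5 in 8633, 2 in 78A, 0 in 2M and 1 in each of the other 4. The DEX libraries held 1 count in 20M, 1 in 2M and 0 in the other 7. In sum this is 81 counts of 418368948 against 2 of 205339871, and without 73M, whose VEH library was the deepest, 22 of 217146660 against 2 of 189205570. The fitted log2 fold change of -3.03 depends on the small constant that the fit adds to counts of 0. Leaving out any one of 7 leukemias ended the call (adjusted p up to 0.109 without 73M, by edgeR), though the fitted change in those fits, -3.25 to -2.57, was about as large, and the call held without 2M or without 5C. With the term it was -2.98 (adjusted p = 0.155 by edgeR). In 4638 the libraries held 34 and 28 counts, and adding it gave a smaller fitted change, -1.76, with an adjusted p of 0.138 by edgeR. The summed host NK markers, of which *Ncr1* is one, were lower in 7 of 9 DEX libraries, and their part in the call was not tested.

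Among 74 other genes of the granule, receptor, adaptor, regulator and ligand lists, 35 were tested and 7 called, 6 of them higher and 1 lower in the DEX columns, beside 13.0% of all genes tested (705 of 11339 higher and 770 lower). Their median log2 fold change was -0.00096, against 0.0039 over all genes tested. Of 11 granule genes tested, 4 were called, all higher, with a median of 0.21. *Ctsc* encodes cathepsin C, the peptidase that activates granzymes, and rose in 9 of 9 leukemias, most in 2M, from 6.85 to 22.4 FPKM (log2 fold change 0.66, SE 0.14, adjusted p = 0.0144 by edgeR). *Rab27a*, a small GTPase needed for granules to dock and be released, rose in 9 of 9, for example from 19.6 to 42.1 FPKM in 78A (0.66, SE 0.11, adjusted p = 0.00623 by edgeR). *Srgn*, the granule proteoglycan serglycin, rose in 8 of 9 (0.40, SE 0.092, adjusted p = 0.0194 by edgeR), lost the call with the term for libraries rich in ribosomal RNA (0.32, adjusted p = 0.0745 by edgeR), and kept it in the 4 leukemias that had no such library (0.40, adjusted p = 0.0435 by edgeR). Both *Ctsc* and *Srgn* are also made by myeloid cells. The neutrophil and macrophage sums were each lower in 7 of 9 DEX libraries. The mast cell or basophil sum was higher in 5 of 9, and in 2M it went from 2.11 to 6.15 FPKM. The part of these cells in the rise was not tested. *Stxbp2*, which encodes the fusion protein Munc18-2, rose by 0.21 (SE 0.057, adjusted p = 0.0335 by edgeR), but lost the call when 20M, 2M, 73M, JW14 or JW81 was left out (0.17 to 0.23 over all 9 such fits) and with the term (0.19, adjusted p = 0.116 by edgeR). In the 4 leukemias that had no library rich in ribosomal RNA the *Stxbp2* change was 0.086 (adjusted p = 0.489 by edgeR).

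None of 6 NK receptor genes and none of 9 adaptor genes tested was called by edgeR (13.0% of all genes were). Of 8 regulators tested, 2 rose: *Zbtb16*, which encodes PLZF, a factor of innate-like T cells, in 9 of 9 leukemias (log2 fold change 1.61, SE 0.39, adjusted p = 0.0218 by edgeR), and *Nfil3*, a factor needed for NK cell development, in 7 of 9 (0.55, SE 0.16, adjusted p = 0.0447 by edgeR). *Zbtb16* levels ran from 0.0265 FPKM in JW81 to 9.45 in 5C. The rise was from 0.00738 to 0.0456 FPKM in JW81 and from 0.00964 to 0.343 in 20M, both near 0. Where the gene was expressed, it went from 8.47 to 10.4 FPKM in 5C, 6.10 to 7.06 in 8633 and 1.95 to 6.12 in JW14. The adjusted p of *Zbtb16* was 0.0580 by edgeR when 73A was left out (log2 fold change 1.45). Over the 4 leukemias that had no library rich in ribosomal RNA the fold was no smaller, at 1.66 (adjusted p = 0.114 by edgeR). The *Nfil3* rises include those of 8633, from 0.183 to 0.216 FPKM, and JW14, from 0.170 to 0.180. Of the 9 fits that left out a leukemia, with log2 fold changes of 0.43 to 0.68, the *Nfil3* call held only without 5C or JW81. It was lost with the term (0.48, adjusted p = 0.131 by edgeR) but held in the 4 leukemias that had no library rich in ribosomal RNA (0.79, adjusted p = 0.0314 by edgeR). *Tnfsf10*, which encodes the death ligand TRAIL and was the single ligand tested, fell in 8 of 9 leukemias (-0.61, SE 0.18, adjusted p = 0.0480 by edgeR), the exception being 5C, and kept the call in 1 of 9 fits that left out a leukemia (-0.74 to -0.48) and lost it with the term (log2 fold change -0.59, adjusted p = 0.131 by edgeR). It was called in the 4 leukemias that had no library rich in ribosomal RNA (-1.07, adjusted p = 0.0391 by edgeR). The other ligands were low, *Ccl5* at most 0.808 and *Ccl3* at most 0.843 FPKM in the 18 libraries.

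**Figure D4:**
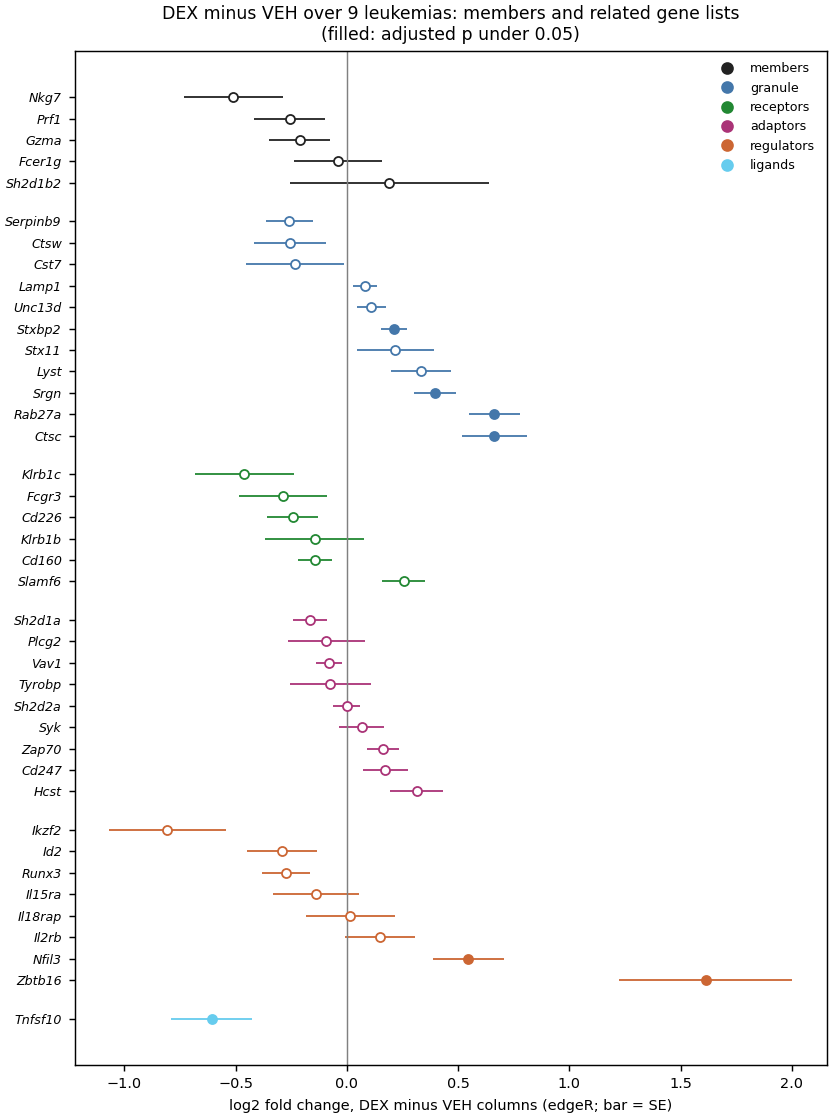
Log2 fold change of DEX minus VEH columns over 9 leukemias (edgeR, bars are SE) for the 5 members and 35 related genes over the filter; filled points have an adjusted p under 0.05. No member is filled, and the granule genes *Ctsc* and *Rab27a* both lie at 0.66. *Sh2d1b2* is over the filter only through 8633.

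**Figure D5:**
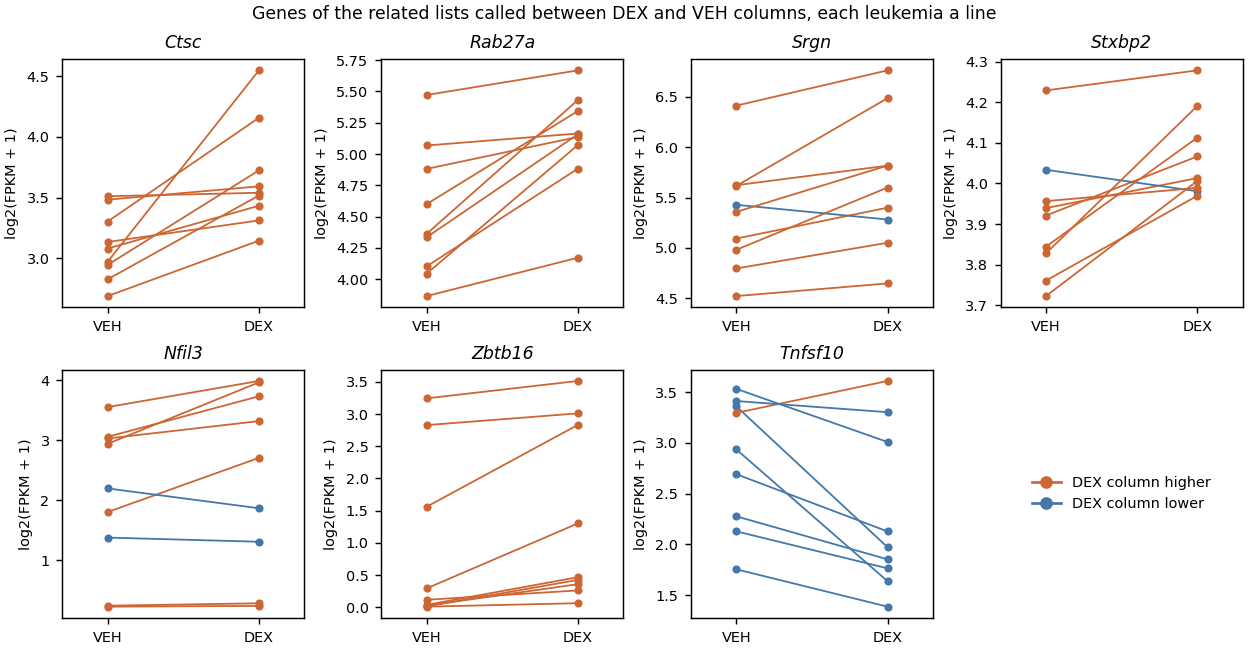
Level, log2(FPKM + 1), in the VEH and DEX libraries of each of 9 leukemias (one line each) for the 7 called genes of the related lists; axes do not start at 0 and differ between panels. All 9 lines rise for *Ctsc*, *Rab27a* and *Zbtb16*, and 8 of 9 fall for *Tnfsf10*.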

How the data were processed

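RNA from the marrow of mice carrying 10 transplanted leukemias was measured in 20 libraries, 2 per leukemia. Per the labels and the paper, poly(A) RNA was selected, TruSeq libraries were made, and the authors aligned reads with Bowtie 2 to mm10 and quantified them with RSEM. What the authors deposited are expected counts from RSEM, although the table is named for FPKM. They were rounded for the count tests. FPKM used library totals and merged exon lengths of GENCODE M21 (GRCm38), found for 37693 of 39017 genes. Columns were tied to leukemias by name, 3 of the 20 to the leukemia only. The genotypes of the mice are not reported here.

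The members and gene lists were chosen with earlier results of these data known. A leukemia held a member when both libraries reached 1 FPKM. DEX and VEH columns of 9 leukemias were compared with the quasi-likelihood test of edgeR 4.0.16 (R 4.3.3) with TMM scaling, Benjamini-Hochberg adjustment, and leukemia as a block, since both libraries come from that leukemia. Members under a mean of 1 FPKM were read from a fit of genes with at least 10 counts. The fit was tested on simulated data with changes larger than most reported here and without libraries rich in ribosomal RNA. It was not tested on smaller changes. DESeq2 1.42.0 was an alternative. Floors of 3 counts cover counting error only. Python 3.11.15 was used for the rest. The rule named at most 4 genes from each list, those called first and then the most abundant, with 3 genes per member by Pearson's r and the nearest neighbours. The remaining granzymes, *Syk* and *Plcg2* were named after their values were seen.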

Additional observations from a re-analysis of the deposited data

Results flagged for a closer look

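Over 9 leukemias, 18 sets of values (the level of each member and its difference between the libraries) were searched for a leukemia apart from the rest by Dixon's ratio, the gap to the nearest value over the whole range; a ratio beyond its critical value for 9 values set a leukemia apart. In independent sets chance sets apart about 1 in 20. Here 4 were found, which is a description and not a test, since the members were chosen with their values known and the 4 come from 2 leukemias. The *Sh2d1b2* level of 8633, 3.67 on the log2(FPKM + 1) scale, had a ratio of 0.984, and its DEX minus VEH difference of 0.27 a ratio of 0.696; since all other leukemias were near 0, the second value has little to be compared with. The *Klrd1* level of 73A, 0.79, had a ratio of 0.605, and its difference of 1.06 a ratio of 0.763. Both *Klrd1* values rest on the 40 counts of 73A DEX, against 2 in 73A VEH.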

How the results depend on the processing

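No alternative called a member, except that 1 (*Ncr1*) was called without the filter on FPKM. The count of 1475 genes over the whole table was 8 with no replicate block, 465 with a term for the libraries rich in ribosomal RNA, 479 in the 4 leukemias without such a library, 15 in the 5 with one, and 675 (without 20M) to 2036 (without 5C) when a leukemia was left out. The 7 calls in the related lists became 0 without the block, 3 with the term (*Ctsc*, *Rab27a* and *Zbtb16*), 7 in the 4 leukemias without such a library (5 higher and 2 lower, *Stxbp2* and *Zbtb16* not among them), 0 in the 5 with one, and 4 to 8 with a leukemia left out. The pairing of the libraries comes from the leukemia, and without the block *Ncr1* had a log2 fold change of -3.23 with an adjusted p of 0.246 by edgeR.

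*Fcer1g* changed direction: its log2 fold change was 0.029 with 4638 added, 0.11 with the term, 0.46 in the leukemias without a library rich in ribosomal RNA, and -0.22 to 0.076 with a leukemia left out, being above 0 without 73M or JW81. In fits without the filter, added after seeing the data, *Gzmb* was at -0.51 in the leukemias with such a library and *Klrk1* at 0.20 in those without. The cause was not tested. *Gzma*, *Prf1*, *Nkg7* and *Klrd1* kept their direction in every alternative run, with adjusted p from 0.0687 to 1.00 by edgeR or DESeq2. Without the filter, DESeq2 gave no adjusted p for *Gzmb*, *Klrd1*, *Klrk1* or *Ncr1*. *Sh2d1b2* could not be fitted without 8633, because it then fell under the filter. Counting each of 9 members in each of 10 leukemias, 35 of 90 pairs were held, and 16 at 5 FPKM; the other level settings stayed within 1.5 times. Values under 3 counts are not distinguishable from 0 at this depth.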
